A study of Mus musculus with 4 samples.

Results

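The genes described here are the core of the leukaemia inhibitory factor (LIF) pathway of mouse embryonic stem cells and one receptor phosphatase. There are 9 of them among 25239 gene symbols: the receptor chains Lifr and Il6st, the kinase Jak1, the transcription factor Stat3, the target genes Socs3, Pim1, Pim3 and Gbx2, and Ptprt. The first 8 were taken by name for their place in the pathway, with earlier results of these data known. Ptprt was chosen by its measured fold change, as the largest rise in the same comparison that is described here. Among the 11386 genes with a mean log2 level of at least 2, Ptprt stood first, with a log2 fold change of 4.98 against 4.20 for the next gene, Synpo2l. Without that minimum it stood at rank 21. The values of the 9 genes between the groups are therefore given as a description, without a test.

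Polyadenylated RNA was sequenced from embryonic stem cells with the genotype Ogt fl/fl, in which both alleles of Ogt can be removed by a recombinase. Ogt encodes O-GlcNAc transferase, which attaches a sugar to serine and threonine residues of proteins. Deletion was induced with 4-hydroxytamoxifen (4-OHT) over 6 days in the 2 Ogt iKO libraries, and the 2 control libraries came from Ogt fl/fl cells kept for the same time without it. All cultures contained LIF in the medium and grew on mitomycin C-treated fibroblasts as feeder cells. Viable cells were sorted to remove the feeders, for which the labels name CD90.2 as the mark of the stem cells and CD326 as that of the feeders. CD326 is the product of Epcam, known from embryonic stem cells, and CD90.2 is known from fibroblasts, so these roles may be swapped in the labels. The treated cells were in addition gated on a yellow fluorescent protein. The recombinase and its promoter are not given in the sources used here. No group received 4-OHT with Ogt intact, so loss of Ogt, the ligand, the recombinase and the extra selection cannot be told apart.

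LIF binds a receptor made of LIFR and gp130, the product of Il6st. The kinase JAK1, bound to these chains, then phosphorylates STAT3 on tyrosine, and STAT3 enters the nucleus and activates target genes. Mouse embryonic stem cells need this signal for self-renewal in medium of this kind. Socs3 encodes a feedback inhibitor of gp130 and JAK, Pim1 and Pim3 encode serine/threonine kinases, and Gbx2 encodes a homeodomain transcription factor that can support self-renewal. Ptprt encodes a receptor-type tyrosine phosphatase of the R2B class, known mainly from the nervous system, for which STAT3 has been described as a substrate. RNA counts do not measure phosphorylation of STAT3, which was not analysed here.

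Total counts ran from 14668489 to 16504204 per library. Levels are given in CPM, the count scaled to a common library size, after trimmed-mean (TMM) scaling, which sets the bulk of genes to no change. Ogt had 2963 and 3108 counts in the control libraries and 437 and 389 in the Ogt iKO libraries, and fell by 2.96 on the log2 scale (SE 0.0676), with an adjusted p of 2.486e-07 from the quasi-likelihood test of edgeR after Benjamini-Hochberg correction. Under scaling by library totals alone, the median over all genes went from 0.024 to 0.19 on the log2 scale. Of 10 embryonic stem cell markers, 9 were lower in Ogt iKO and 1, Dppa5a, was not called, where 32.0% of the 14525 genes tested were lower and 33.2% higher. Without Ogt iKO replicate 2 all 10 were called lower, and without control replicate 1, 8 were. The summed level of these markers was 4568 CPM in both controls and 2434 and 2778 CPM in Ogt iKO. The 12 fibroblast markers summed to 966 and 1107 CPM in the controls, 2407 CPM in Ogt iKO replicate 1 and 591 CPM in Ogt iKO replicate 2, and 0 of them were at 0 counts in every library. Of these 12, 2 were called higher and 0 lower. Without Ogt iKO replicate 1, 9 were called lower, and without Ogt iKO replicate 2, all 12 were called higher. Markers of the feeder cell type were thus detected in every library and differed most between the Ogt iKO replicates. The part of this difference in the results that follow was not tested. Nothing in the labels says whether replicates came from separate cultures, so the spread between them may be technical.

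Of the 9 genes, 7 were lower in Ogt iKO and 2, Jak1 and Ptprt, were higher. The groups did not overlap in any of the 9, and they did not overlap in 83.2% of the 14525 genes tested either. This count comes from the comparison in which Ptprt was picked, and nothing is read from it. The median log2 fold change of the 8 genes other than Ptprt was -0.79, and that of all genes tested was 0.024. These 8 were also chosen with earlier results of these data known, so nothing is read from their median either. In bulk RNA of this kind, fewer cells of a type and less RNA per cell cannot be told apart.

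**Figure D1:**
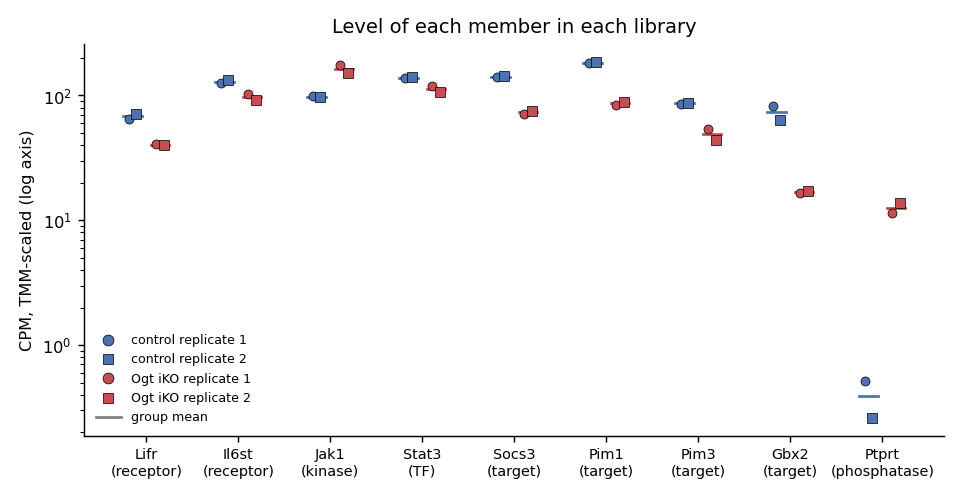
Level of the 9 genes in each library, in TMM-scaled CPM on a log axis, with control libraries in blue and Ogt iKO libraries in red. Circles are replicate 1, squares replicate 2 and bars the group means. In Jak1 and Ptprt the red points lie above the blue ones, and in the other 7 genes they lie below.

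Both receptor chains were lower in Ogt iKO, Lifr more than Il6st. Lifr spans bases 7090610 to 7197489 of chromosome 15 in GRCm38.p6, with 1000 and 1095 counts in the controls against 694 and 617 in Ogt iKO. Its level was 68.0 CPM ± 4.79 (SD, n = 2) across the controls, compared with 40.2 CPM ± 0.577 (SD, n = 2) after 4-OHT, or 59.1% of control, with a log2 fold change of -0.76 (SE 0.0815). Both controls lay well above both Ogt iKO libraries, which differed from each other by less than the controls did. Il6st, on chromosome 13 from 112464070 to 112506860, had 1939 and 2036 counts in the controls against 1760 and 1437 in Ogt iKO. Its level was 129 CPM ± 5.27 (SD, n = 2) across the controls, compared with 97.8 CPM ± 7.29 (SD, n = 2) after 4-OHT, or 75.8% of control, with a log2 fold change of -0.40 (SE 0.0705). The gap between the groups was larger than the spread within either, but smaller than for Lifr. Within a library, Lifr had 0.516 and 0.538 counts per Il6st count in the controls and 0.394 and 0.429 in Ogt iKO. That ratio does not depend on how libraries are scaled, and it was lower in both Ogt iKO libraries.

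Jak1 was the one member of the signalling core that was higher in Ogt iKO. It encodes the main kinase on the LIF receptor and lies on chromosome 4 from 101151974 to 101265282. It had 1534 and 1487 counts in the controls against 3012 and 2354 in Ogt iKO. Its level went from 98.0 CPM ± 1.53 (SD, n = 2) without 4-OHT to 164 CPM ± 17.3 (SD, n = 2), or 1.67-fold, with a log2 fold change of 0.74 (SE 0.0777). Ogt iKO replicate 1, the library with the most fibroblast marker RNA, had the higher Jak1 level, 176 CPM against 152 CPM in replicate 2. Replicate 2 had less of that marker RNA than either control, whose Jak1 levels were 99.1 and 96.9 CPM. Il6st, Stat3 and Pim3, all lower in Ogt iKO, also had more CPM in Ogt iKO replicate 1 than in replicate 2. The part of feeder RNA in the Jak1 counts was not tested. Without replicate 1, the log2 fold change of Jak1 was 0.64. Per Lifr count, Jak1 had 1.53 and 1.36 counts in the controls and 4.34 and 3.82 in Ogt iKO, so the kinase transcript gained on that of its receptor in both libraries.

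Stat3 had the smallest difference of the 9 genes. It lies on chromosome 11 from 100886806 to 100939594 and had 2130 and 2140 counts in the controls against 2032 and 1650 in Ogt iKO. The level was 139 CPM ± 1.34 (SD, n = 2) across the controls, compared with 113 CPM ± 8.83 (SD, n = 2) after 4-OHT, with a log2 fold change of -0.30 (SE 0.0682). Under scaling by library totals alone the value was -0.13. The Ogt iKO libraries differed by more than the controls, at 119 and 106 CPM.

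The target genes were all lower, in the order Pim3, Socs3, Pim1 and Gbx2 with all libraries. Without Ogt iKO replicate 1, Pim3 (-0.96) stood below Socs3 (-0.901). Socs3, on chromosome 11 from 117966079 to 117970336, had 2162 and 2193 counts in the controls and 1218 and 1169 in Ogt iKO. Its level was 141 CPM ± 2.32 (SD, n = 2) across the controls, compared with 73.3 CPM ± 2.91 (SD, n = 2) after 4-OHT, or 51.9% of control, with a log2 fold change of -0.95 (SE 0.0615). The replicates of each group nearly coincided. Pim1, on chromosome 17 from 29490785 to 29496111, had 2797 and 2854 counts in the controls and 1437 and 1373 in Ogt iKO. This corresponds to 183 CPM ± 3.78 (SD, n = 2) in the controls and, after 4-OHT, 86.3 CPM ± 3.16 (SD, n = 2), or 47.0% of control, with a log2 fold change of -1.09 (SE 0.0599). Under an exon of the opposite strand, Gm26885, lies 14.5% of the exon length of Pim1, and although the library kit keeps strand, the strand that was counted is not given in the sources used here.

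Pim3, on chromosome 15 from 88862194 to 88865726, had 1328 and 1331 counts in the controls and 914 and 685 in Ogt iKO. Its level was 86.3 CPM ± 0.686 (SD, n = 2) across the controls, compared with 48.8 CPM ± 6.58 (SD, n = 2) after 4-OHT, with a log2 fold change of -0.82 (SE 0.0950). It was the target whose Ogt iKO libraries differed most, and the value was -0.96 without Ogt iKO replicate 1. The remaining PIM kinase gene, Pim2, stood at -0.12 on the log2 scale (SE 0.0976), not past the threshold, with an adjusted p of 0.316 (edgeR). It was called lower without Ogt iKO replicate 2.

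Gbx2 was the lowest relative to control of the 9 genes. It lies on chromosome 1 from 89927962 to 89931176 and had 1284 and 975 counts in the controls and 282 and 268 in Ogt iKO. Its level was 73.3 CPM ± 13.7 (SD, n = 2) across the controls, compared with 16.9 CPM ± 0.554 (SD, n = 2) after 4-OHT, or 23.0% of control, with a log2 fold change of -2.12 (SE 0.131). The controls differed by more than those of any other of these targets, and the value ran from -2.31 without control replicate 2 to -1.92 without control replicate 1. Of the genes tested, 0.709% had a more negative value, against 5.20% for Pim1 and 6.93% for Socs3. These places describe genes chosen with earlier results known and are not a test. An exon of the opposite strand, of D130058E05Rik, overlies 43.5% of the exon length of Gbx2, so its count is uncertain where strand was not used. Its paralogue Gbx1 had 12 and 6 counts in the controls and 8 and 9 in Ogt iKO and was too low to be tested.

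**Figure D2:**
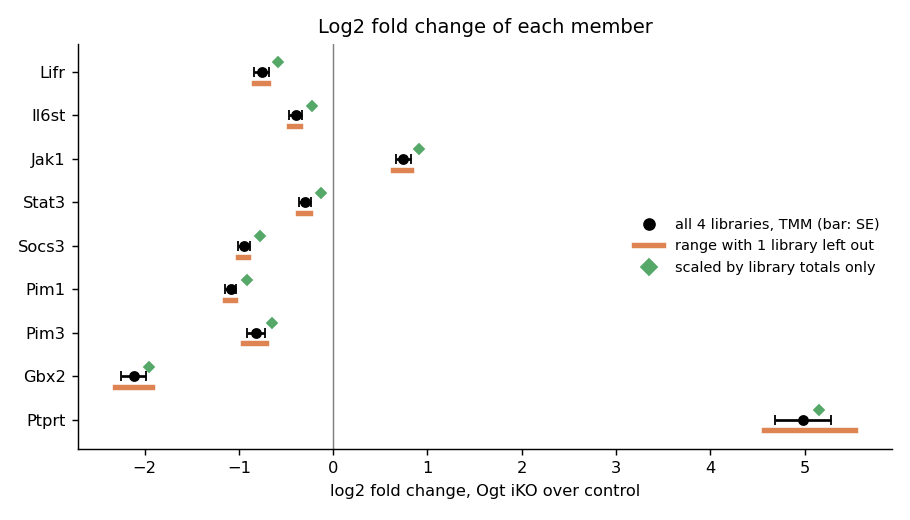
Log2 fold change of each of the 9 genes, Ogt iKO over control. Black points are the fit of all 4 libraries with TMM scaling and their bars the standard error, orange lines the range over fits that each left out 1 library, and green diamonds the value with libraries scaled by totals alone. Each gene stays on its side of 0, from -2.12 for Gbx2 to 4.98 for Ptprt, and the green value of Stat3 lies nearest to 0.

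Counts set against Stat3 in the same library need no scaling between libraries. Socs3 had 1.02 counts per Stat3 count in both controls and 0.599 and 0.708 in Ogt iKO. Pim1 went from 1.31 and 1.33 to 0.707 and 0.832, and Pim3 from 0.623 and 0.622 to 0.450 and 0.415. For Gbx2 the ratio was 0.603 and 0.456 in the controls and 0.139 and 0.162 in Ogt iKO. All 4 target transcripts thus stood lower relative to Stat3 in both Ogt iKO libraries, with no overlap. Il6st per Stat3 differed little, at 0.910 and 0.951 against 0.866 and 0.871, while Jak1 per Stat3 went from 0.720 and 0.695 to 1.48 and 1.43. These ratios show unequal change and do not say that any of the genes stayed constant.

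**Figure D3:**
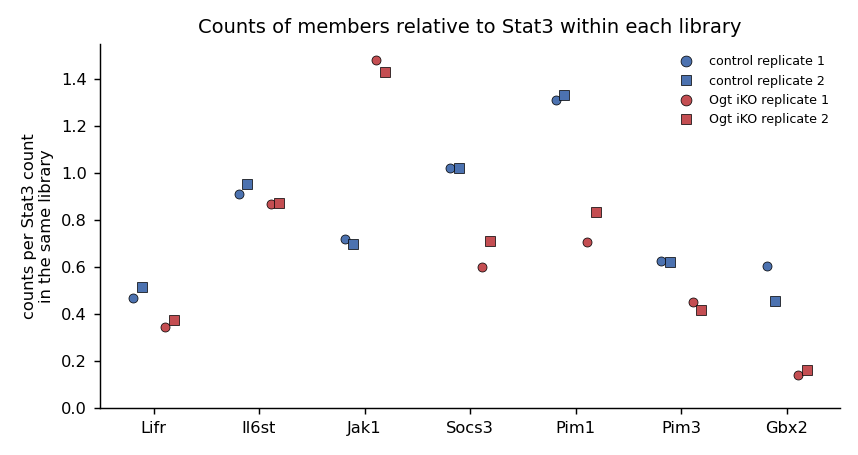
Counts of 7 genes per Stat3 count in the same library, on a linear axis from 0, with blue points for control and red for Ogt iKO. Jak1 lies near 0.7 in the controls and at 1.43 and 1.48 in Ogt iKO, whereas Socs3, Pim1, Pim3 and Gbx2 lie lower in Ogt iKO.

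Levels were compared between genes only per kilobase of exon. In control, Pim1 stood highest at 54.5 CPM per kilobase ± 1.12 (SD, n = 2), followed by Socs3 at 48.9 ± 0.803 (SD, n = 2). Pim3 at 35.5 ± 0.282 (SD, n = 2) and Gbx2 at 33.6 ± 6.30 (SD, n = 2) did not differ beyond their spread. Stat3, Jak1, Il6st and Lifr followed in that order, at 14.5, 13.6, 11.6 and 6.31 CPM per kilobase, and Ptprt stood at 0.0308. In Ogt iKO, Pim1 at 25.7 ± 0.939 (SD, n = 2) and Socs3 at 25.4 ± 1.01 (SD, n = 2) could not be separated. Jak1 at 22.7 ± 2.39 (SD, n = 2) lay next, within the spread of Pim3 at 20.1 ± 2.71 (SD, n = 2). Below them came Stat3 at 11.8, Il6st at 8.81, Gbx2 at 7.76, Lifr at 3.73 and Ptprt at 0.994 CPM per kilobase. Gbx2 thus moved from the level of Pim3 to below that of Il6st.

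Ptprt was close to silent in control and clearly counted in Ogt iKO. It lies on the minus strand of chromosome 2 from 161521988 to 162661147, and its 1139 kb exceed the length of all but 16 of the 14514 tested genes with a position, whose median is 23.5 kb. It had 8 and 4 counts in the controls, with exact 95% Poisson intervals of 3.45 to 15.8 and 1.09 to 10.2, and 194 and 213 in Ogt iKO, with intervals of 168 to 223 and 185 to 244. These intervals cover counting error only. The level was 0.389 CPM ± 0.181 (SD, n = 2) across the controls, compared with 12.5 CPM ± 1.69 (SD, n = 2) after 4-OHT, a fitted fold of 31.6 (log2 fold change 4.98, SE 0.296). The low control counts set the size of this fold, which ran on the log2 scale from 4.57 without control replicate 2 to 5.54 without control replicate 1. Per Stat3 count, Ptprt had 0.00376 and 0.00187 counts in the controls and 0.0955 and 0.129 in Ogt iKO. Per exon length it still stood lowest of the 9 genes in Ogt iKO.

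Markers of nervous tissue, where Ptprt is mainly known, were called in both directions. Of 11 such markers, 8 could be tested, of which 1 (Map2, log2 fold change 0.90) was higher and 5 were lower, among them Sox1 at -2.36, Pax6 at -1.91 and Elavl3 at -1.73, with adjusted p from 9.55e-07 to 0.00286 for these 4 (edgeR). Over all genes tested 33.2% were higher and 32.0% lower. Among the 3 too low to test, Syt1 had 1 and 4 counts in the controls and 9 and 19 in Ogt iKO. Dcx had 2 and 1 against 9 and 7, and Snap25 had 5 and 11 against 4 and 7. Stmn2 alone held 178 and 170 CPM in the controls and 75.3 and 86.8 CPM in Ogt iKO. The summed level of the nervous tissue markers, Stmn2 included, was 383 and 363 CPM in the controls and 188 and 192 CPM in Ogt iKO. With 1 library left out, 1 or 2 were higher, the latter without control replicate 2, Ogt iKO replicate 1 or Ogt iKO replicate 2. Of the fibroblast markers, Pdgfrb (85 and 121 counts in the controls, 428 and 245 in Ogt iKO) and Fbln1 (918 and 884 counts against 1419 and 1235) were higher in both Ogt iKO libraries, as Ptprt was, while the sum over all 12 was lowest in Ogt iKO replicate 2. The sort was meant to exclude feeders, and the part of feeder RNA in the Ptprt counts was not tested.

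The 5 genes whose pattern over the 4 libraries was closest to that of Ptprt, by Euclidean distance between centred log2 CPM values, were Abca9 (0.516), Ctrb1 (0.536), Syn2 (0.679), Ano5 (0.885) and Meig1 (0.915). Abca9 had 4 and 1 counts in the controls and 143 and 99 in Ogt iKO, and Ctrb1 had 6 and 3 against 113 and 115. Syn2, Ano5 and Meig1 had at most 1 count in any control. The measure rests on 4 libraries in 2 groups, and all 5 genes had at most 6 counts in a control.

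Promoter sequences of the 9 genes were examined as a description. The windows were the 250 bases upstream of each start in the RefSeq table for GRCm38.p6, in which all 9 genes matched by symbol, with 11 windows. The first windows of Ptprt and Gbx2, the genes with the largest difference in each direction, are shown 5′ to 3′ on the strand of the gene with CG dinucleotides in capitals, since the study, by its title, concerned DNA demethylation. The Ptprt window is chr2:162661148-162661397 and that of Gbx2 is chr1:89931177-89931426, both on the minus strand.
Ptprt: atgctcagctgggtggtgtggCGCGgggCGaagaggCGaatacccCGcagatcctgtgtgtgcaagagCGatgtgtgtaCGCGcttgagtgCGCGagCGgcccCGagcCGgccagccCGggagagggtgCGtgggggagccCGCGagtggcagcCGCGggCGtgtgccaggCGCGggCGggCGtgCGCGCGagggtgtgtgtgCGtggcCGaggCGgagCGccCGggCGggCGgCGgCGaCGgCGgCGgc
Gbx2: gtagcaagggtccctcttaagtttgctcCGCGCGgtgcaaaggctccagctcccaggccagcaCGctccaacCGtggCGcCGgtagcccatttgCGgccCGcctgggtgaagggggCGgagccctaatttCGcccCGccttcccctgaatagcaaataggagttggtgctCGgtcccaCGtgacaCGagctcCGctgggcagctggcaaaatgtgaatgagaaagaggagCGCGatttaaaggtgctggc
The Ptprt window held 39 CG dinucleotides, more than 98.4% of the 32851 windows in the table, whose median was 6. The Gbx2 window held 18, more than 78.3%. The other first windows held from 13 in Stat3 to 43 in Lifr. The second windows of Lifr and Pim1 held 3 and 4, below the median. At least 10 CG dinucleotides were in 9 of the 11 windows of these genes and in 37.8% of all windows. All windows were taken, not only those of the genes tested, so these shares do not set the 9 genes against expressed genes. Methylation of these windows was not analysed here.

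Windows were also searched for the palindromic motif of STAT factors, as TTCCNGGAA and as the looser TTCNNNGAA, which contains the first. Each reads the same on both strands. TTCCNGGAA was in 0 of the 11 windows and in 0.913% of all windows, and TTCNNNGAA in 1 of the 11 and in 7.02% of all. The 1 match lay in the window of Socs3, chr11:117969367-117969616 on the minus strand, shown with the match in capitals.
Socs3: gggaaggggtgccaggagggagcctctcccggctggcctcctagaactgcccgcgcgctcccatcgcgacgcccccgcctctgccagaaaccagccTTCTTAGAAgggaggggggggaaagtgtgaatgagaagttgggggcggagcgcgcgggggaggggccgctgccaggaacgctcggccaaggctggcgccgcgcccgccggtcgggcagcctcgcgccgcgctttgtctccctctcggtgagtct
The match, TTCTTAGAA, begins 154 bases upstream of the start given in the table, at chr11:117969512-117969520. The window lies inside the RefSeq span of Socs3 given above, as the first window of Lifr lies inside that of Lifr, so these starts are not the outermost ones of their genes. The same holds for the second windows of Lifr and Pim1. Windows of Jak1 and Stat3 lie partly inside the spans of their genes, so those starts are not the outermost either. The Socs3 start also lies apart from the nearest start of a Socs3 transcript in GENCODE M21, by 85 bases. A match is a run of letters and not a site of binding, and a window without one says nothing of STAT3.

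**Figure D4:**
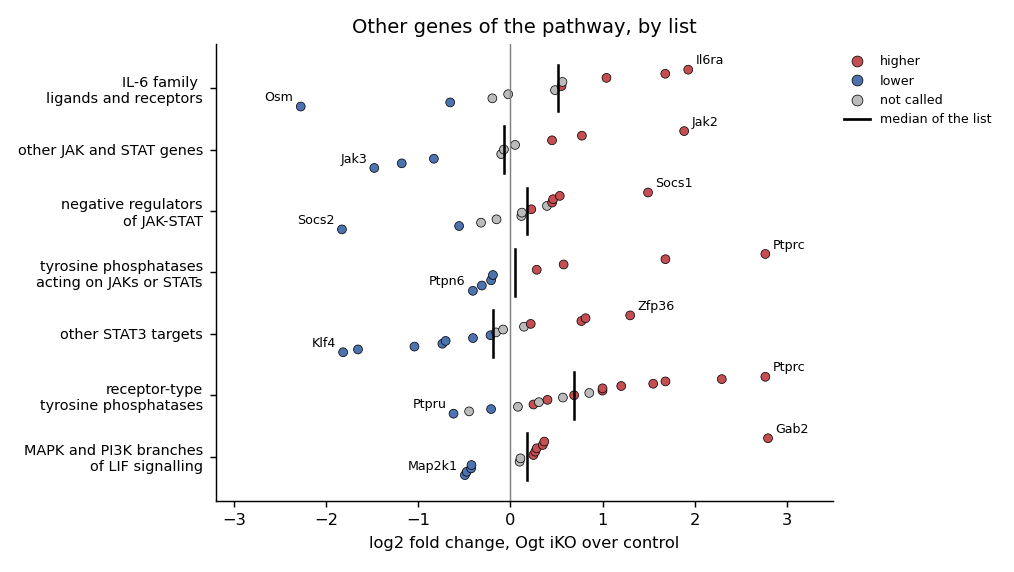
Log2 fold changes, Ogt iKO over control, of the tested genes in 7 lists, which leave out the 9 genes described. Red is called higher, blue called lower and grey not called at an adjusted p of 0.05 (edgeR). The list of receptor-type tyrosine phosphatases shown here was not used for the 71 pathway genes of the text. Pim2 and Gbx1 are among those 71 but are not shown. Black bars are list medians and the outermost gene on each side is named. Every list has genes on both sides of 0, from Osm at -2.28 to Gab2 at 2.79.

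Beyond the 9 genes, 71 other genes of the pathway were listed, of which 65 could be tested, and 25 were higher and 22 lower in Ogt iKO (edgeR, adjusted p under 0.05), against 33.2% and 32.0% of all genes tested. Their median log2 fold change was 0.099, and that of all genes tested was 0.024. With library totals as the only scaling, 30 were higher and 18 lower, and the shares over all genes tested moved the same way, to 42.1% higher and 22.6% lower.

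Ligands and receptors of the interleukin-6 family were mostly at low levels. Of 10 tested, 4 were higher and 2 lower, near the 33.2% and 32.0% of all genes tested, with a median log2 fold change of 0.52. Lif had 111 and 120 counts in the controls and 253 and 250 in Ogt iKO, and rose by 1.04 on the log2 scale (SE 0.144, adjusted p 0.000291, edgeR), although the medium already contained LIF. Il6ra, the receptor for interleukin-6, rose by 1.93 (SE 0.206), from 31 and 30 counts to 136 and 111. Il11ra1 rose by 0.55 and Il11, named here although low, by 1.68 from 2 and 7 counts to 13 and 18. The call of Il11 was lost with DESeq2 and without control replicate 1 or Ogt iKO replicate 2, and that of Il11ra1 with DESeq2 and without control replicate 1, control replicate 2 or Ogt iKO replicate 1. Without control replicate 1, 2 genes of this list were higher. Cntfr, the receptor for ciliary neurotrophic factor that also works with LIFR, fell by 0.65 (SE 0.0886), from 1140 and 981 counts to 737 and 688. Osm, a ligand also named after its values were seen, had 12 and 21 counts in the controls and 3 and 4 in Ogt iKO, a call lost with DESeq2 and without control replicate 2. Without control replicate 2, 1 gene of this list was lower.

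Among the other JAK and STAT genes, 3 of 9 were higher and 3 lower, the same shares as over all genes tested (33.2% and 32.0%). Jak2 rose by 1.89 on the log2 scale (SE 0.135, adjusted p 1.01e-05, edgeR), from 174 and 165 counts to 780 and 552, beside 0.74 for Jak1, a difference that was not tested. Jak3 fell by 1.48 (SE 0.171), and Tyk2 had a value of -0.07 that did not pass the threshold and turned to 0.099 under scaling by library totals alone. Stat5b rose by 0.45 (SE 0.109), a call that DESeq2 did not make. Stat4 fell by 1.18 (SE 0.121) and Stat6 by 0.83 (SE 0.0883). Stat2 and Stat5a had values of -0.10 and 0.05, neither past the threshold, and Stat2 changed sign under scaling by totals, to 0.068. Adjusted p values of the called genes named here ran from 1.01e-05 to 0.00628 (edgeR).

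The SOCS family, to which Socs3 belongs, are adaptors that block cytokine receptors and target them for degradation. Socs2 fell by 1.83 on the log2 scale (SE 0.0786, adjusted p 1.01e-06, edgeR), from 1509 and 1430 counts to 444 and 430. Socs1 rose by 1.49 (SE 0.156, adjusted p 6.33e-05, edgeR), from 79 and 88 counts to 250 and 247. Socs4 rose by 0.46, Socs7 by 0.45 and Socs6 by 0.23. The call of Socs6 was lost without control replicate 1, control replicate 2 or Ogt iKO replicate 1, with DESeq2 and with no filter on low counts. Socs5 (0.12) and Cish (0.40) did not pass the threshold, though Cish did under scaling by library totals alone. Of the genes for PIAS proteins, which bind STATs, Pias1 rose by 0.54 and Pias4 fell by 0.56. Over the list of 12 negative regulators, 5 were higher and 2 lower, with a median of 0.18, beside 33.2% higher and 32.0% lower over all genes tested.

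Of 8 other genes for tyrosine phosphatases known to act on JAKs or STATs, 4 were higher and 4 lower, and the list median was 0.05 on the log2 scale. Of all genes tested, 65.3% were called, 33.2% higher and 32.0% lower. The higher ones were Ptpn9 (0.58), Ptpn11 (0.28), which encodes SHP2, and the receptor types Ptprd (1.68) and Ptprc. Ptprd had 35 and 30 counts in the controls and 128 and 94 in Ogt iKO, and Ptprc, named although low, had 10 and 4 against 67 and 36. Values of the lower ones were small, at -0.41 for Ptpn6, -0.31 for Ptpn2, -0.21 for Ptprk and -0.19 for Ptpn1, with adjusted p from 0.00263 to 0.0297 (edgeR). The call of Ptpn1 was lost with DESeq2 and upper-quartile scaling and without control replicate 1, control replicate 2 or Ogt iKO replicate 1. Scaling by library totals alone left 1 of these 4 calls, and 2 were left without control replicate 2 or without Ogt iKO replicate 1.

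Ptprt belongs to the R2B class of receptor phosphatases together with Ptprk, Ptprm and Ptpru, which share an extracellular MAM domain. Ptprm rose by 1.55 on the log2 scale (SE 0.264, adjusted p 0.000966, edgeR), from 41 and 32 counts to 142 and 86. Ptpru fell by 0.62 (SE 0.138, adjusted p 0.00416, edgeR), from 302 and 285 counts to 234 and 172. Ptprk had the most counts, 2259 and 2472 in the controls against 2185 and 2136, and its value of -0.21 was no longer called under library totals or upper-quartile scaling, without control replicate 2 or without Ogt iKO replicate 1. Over 17 tested genes for receptor-type tyrosine phosphatases other than Ptprt, 10 were higher and 2 lower, with a median of 0.69, beside 33.2% higher, 32.0% lower and a median of 0.024 over all genes tested. Ptprc, Ptprd and Ptprk stand in this list and in the preceding one. Without control replicate 2, 1 was lower. The highest value among these 17 was that of Ptprc, at 2.77. Ptprt was picked for its size and is not set against them.

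Of 14 known STAT3 targets other than the 4 described, 7 were lower and 4 higher, with a median log2 fold change of -0.19, where 32.0% and 33.2% of all genes tested were lower and higher. Klf4, a pluripotency factor downstream of LIF, fell by 1.82 (SE 0.0745, adjusted p 8.95e-07, edgeR), from 1652 and 1726 counts to 544 and 472. Bcl3 fell by 1.65 (SE 0.105), from 481 and 492 counts to 175 and 152, and Ier3 by 1.04 (SE 0.215). Klf5, Myc and Tfcp2l1 had log2 fold changes of -0.74, -0.70 and -0.41 and were called lower as well. Zfp36 rose by 1.30 (SE 0.0973), Bcl2l1, which encodes an inhibitor of apoptosis, by 0.81 (SE 0.0676) and Junb by 0.77 (SE 0.116). Adjusted p values of these 9 genes ran from 8.95e-07 to 0.00274 (edgeR).

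LIF also feeds the MAPK and PI3K branches. Of 12 genes listed for them, 6 were higher and 4 lower, with a median log2 fold change of 0.18, against 33.2% and 32.0% of all genes tested. Gab2, an adaptor, rose by 2.79 (SE 0.186, adjusted p 6.82e-06, edgeR), from 34 and 28 counts to 243 and 214. The PI3K genes Pik3ca and Pik3r1 rose by 0.37 and 0.35, the latter a call that was lost with DESeq2 and without control replicate 2 or Ogt iKO replicate 1. The kinase genes Map2k1 and Mapk3 fell by 0.49 and 0.43. Without control replicate 2, 3 genes of this list were higher.

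The genes next to the 9 on the chromosome were compared with them. The nearest 2 tested genes on each side of each of the 9 gave 36 distinct neighbours, of which 14 were higher and 9 lower, or 63.9%, against 65.3% of all genes tested. Of the 18 nearest on either side, 4 were higher, 6 lower and 8 not called. Ptprt lies between Chd6 and Srsf6, whose starts lie 1550 and 270 kb from its own and whose log2 fold changes were -0.43 and -0.32 (adjusted p 0.001 and 0.00164, edgeR). The next genes outward were called higher, Emilin3 at 0.72 (adjusted p 0.00651) and L3mbtl1, with 19 counts at most in a library, at 1.17 (adjusted p 0.0231, edgeR). The call of Emilin3 was lost without control replicate 1, and that of L3mbtl1 with DESeq2 and without any 1 of the libraries. Around Stat3, Cavin1 rose by 1.39 and Stat5a was not called. Beside Lifr, Egflam rose by 2.93 from 15 and 8 counts to 92 and 95, while Osmr, on its other side, followed 1 library, with 65 and 108 counts in the controls and 207 and 54 in Ogt iKO. The value of Osmr was 0.48 with all libraries, not past the threshold, -0.68 without Ogt iKO replicate 1 and 1.08, then called higher, without Ogt iKO replicate 2. Beside Jak1, Raver2 and Ak4 were lower (-0.45 and -0.87), as was Dnajc6 (-0.44) further out, a call lost with DESeq2, library totals and without control replicate 2 or Ogt iKO replicate 2. Cachd1, the second gene on the side of Raver2, was higher (0.80). Beside Gbx2, Agap1 was higher (0.66) and Ackr3 was not called, and beside Socs3, Birc5 was lower (-0.51) and Pgs1 was not called, but was called higher (0.22) without Ogt iKO replicate 1. Beside Pim3, Creld2 was higher (0.22), a call lost with DESeq2 and without control replicate 1, control replicate 2 or Ogt iKO replicate 2, and Mov10l1 was not called. Beside Il6st, Ddx4 was lower (-0.26), a call lost with DESeq2, upper-quartile scaling or no filter and without control replicate 1 or Ogt iKO replicate 1, and Map3k1 was not called. Neither Fgd2 nor Tbc1d22b, beside Pim1, was called. Under scaling by library totals alone, Ackr3 (0.55), Map3k1 (0.33), Pgs1 (0.34) and Tbc1d22b (0.26) were called higher and Ddx4 (-0.088) was not called.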

How the data were processed

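Polyadenylated RNA of 4 mouse embryonic stem cell libraries was analysed, 2 Ogt iKO and 2 control, with groups taken from the sample titles. The authors deposited raw counts per gene symbol, 1 column per library. Per the submitters' processing notes STAR, Picard and the genome build mm10 were used. The library kit keeps strand, per the labels' protocols. Versions, annotation and the counted strand are not given in the sources used here. The tables held 25239 symbols and 0 rows that name no gene.

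Tests of counts used the quasi-likelihood functions of edgeR 4.0.16 under R 4.3.3, with TMM scaling, filterByExpr and no covariate, all 4 libraries in one fit, with Benjamini-Hochberg adjustment over the 14525 genes tested, and were called at an adjusted p under 0.05. The fit was tested on simulated data. Each standard error is the absolute log2 fold change divided by the square root of F. Log2 CPM used a prior count of 2. Total counts ran from 14668489 to 16504204. A count of 0 was taken to allow up to 3 counts, or 0.182 to 0.205 CPM by library totals, without TMM scaling. Positions came from RefSeq for GRCm38.p6 and exon lengths from GENCODE M21 on the same assembly, as the union of exons.

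Alternatives were relative log expression (RLE) and upper-quartile scaling, library totals, DESeq2 1.42.0, 2 other filters, a robust spread, the replicate block, an adjusted p under 0.01 and leaving out each library. The 9 genes and the lists were chosen with earlier results of these data known. Named are Ogt, the 9 genes, up to 3 called genes per list and direction with the largest change and a mean log2 CPM of at least 1, all SOCS, JAK, STAT and R2B genes, Lif, nearest neighbours and the 5 genes most like Ptprt. Other genes named were chosen after their values were seen. Some genes these rules name are not reported here. A planned comparison of protein sequences is not analysed here.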

Additional observations from a re-analysis of the deposited data

How the results depend on the processing

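The sign of each of the 9 genes, all chosen with earlier results known, was the same in 12 alternative fits, which for Ptprt the choice of gene fixed. Stat3 stood at -0.13 under scaling by library totals alone. Across fits leaving out 1 library, Stat3 ran from -0.38 to -0.25, Il6st from -0.47 to -0.35 and Ogt from -3.01 to -2.93. Of 828 values for 69 other named genes, 28 lost and 10 gained a call and 9 reversed. The reversals were those of Stat2 (0.068) and Tyk2 (0.099) under library totals, Tyk2 also with 1 library left out (-0.22 to 0.079), and, over fits leaving out 1 library, Stat5a (-0.15 to 0.21), Socs5 (-0.0805 to 0.27), Osmr (-0.68 to 1.08) and Mov10l1 (-0.10 to 0.37). The 69 genes are those named by rule, so lost calls of Il11, Osm, Ptpn1, Dnajc6, Emilin3 and L3mbtl1 are outside the 828 values. The median of the other JAK and STAT genes turned from -0.07 to 0.099 under library totals, and that of all genes from 0.024 to -0.00275 with DESeq2.

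Among interleukin-6 family genes, higher calls went from 4 to 2 with DESeq2, 2 at an adjusted p under 0.01 and 2 to 4 with 1 library left out, and lower calls from 2 to 1 with DESeq2, 1 with a CPM of at least 1 in 2 libraries and 1 to 2 with 1 left out. Lower phosphatases acting on JAKs or STATs went from 4 to 1 under library totals, 2 under upper-quartile scaling, 2 at an adjusted p under 0.01 and 2 to 4 with 1 left out. Lower receptor-type phosphatases went from 2 to 1 under library totals, upper quartiles or an adjusted p under 0.01, and 1 to 2 with 1 left out. With 1 left out, higher MAPK and PI3K genes ran from 3 to 6, lower family copies from 0 to 1, and fibroblast markers from 2 to 12 higher and from 0 to 9 lower. Higher neural markers went from 1 to 2 under library totals, 3 with no filter, 2 with the replicate block and 1 to 2 with 1 left out. Higher neighbours went from 14 to 9 with DESeq2. Over the whole table, DESeq2 also called fewer genes higher and fewer lower than the main fit. The drops of neighbours and of interleukin-6 family genes with DESeq2 are to be read beside that general fall. The looser motif gave 1 window in place of 0. The cause of these shifts was not tested.

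The labels share replicate numbers between groups but give no shared source, and deviations of same-numbered libraries correlated at 0.086 across genes. With the replicate block, 4922 genes were higher and 4719 lower, against 4827 and 4651 without it. Counts in control limit Ptprt.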
